A study of Mus musculus with 4 samples.

Results

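Straight proximal tubule cells with *Serpina1* transcripts were examined in mouse kidneys after 0, 1, 4 and 7 successive days of intraperitoneal glyoxylate. They were found by a rule on counts in the deposited cells, not by a cell sorter. A cell needed at least 500 unique molecular identifiers (UMIs, counted transcripts) and at most 50% mitochondrial UMIs. It also needed at least 3 UMIs of *Serpina1a*, *Serpina1d* and *Serpina1f* together, at least 2 of them from *Serpina1d* and *Serpina1f*, and no UMI of *Slc5a2*, *Slc5a12*, *Ptprc*, *Slc12a1*, *Slc12a3* or *Havcr1*. Of 60670 barcodes, 523 met the rule and are called gated cells here. The mice were male C57BL/6, 6 to 8 weeks old, and their kidneys were digested with trypsin and DNase and freed of red cells. Each of the 4 time points, D0 (no glyoxylate), D1, D4 and D7, was 1 library of 3′ transcript ends, and how many mice each library held is not given in the sources used here. Single libraries allow no test over animals, and all intervals are 95% intervals for counting error only.

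The proximal tubule reabsorbs most of what the glomerulus filters. Its convoluted parts, near the glomerulus, recover glucose, phosphate and bicarbonate through transporters such as Slc5a2, Slc34a1 and Slc4a4, while its last, straight part, at the border of cortex and medulla, is rich in peroxisomes, organic anion transporters and enzymes of steroid and fatty acid metabolism, many of them under androgen control in male mice. *Serpina1a* to *Serpina1e* are copies of the gene of alpha-1-antitrypsin, the plasma inhibitor of neutrophil elastase that the liver secretes, and *Serpina1f* is a more distant member of the same cluster. Glyoxylate is converted to oxalate, and in mice its injection is used to make calcium oxalate crystals form in the kidney tubules.

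The 3 genes of the rule lie in 1 cluster on the minus strand of chromosome 12 (mm10, GENCODE M21, all protein coding). *Serpina1a* is at chr12:103853589-103863562, *Serpina1d* at chr12:103763594-103773592 and *Serpina1f* at chr12:103688044-103695529. Their promoters are shown because the rule joins a pair of near copies with a gene that is not one. Each is the 250 bases before the RefSeq gene start (GRCm38.p6), read 5′ to 3′ on the gene's strand, with capitals marking the letters GTTAAT, which form part of the site bound by the liver and kidney factor HNF1.
Serpina1a (chr12:103863620-103863869): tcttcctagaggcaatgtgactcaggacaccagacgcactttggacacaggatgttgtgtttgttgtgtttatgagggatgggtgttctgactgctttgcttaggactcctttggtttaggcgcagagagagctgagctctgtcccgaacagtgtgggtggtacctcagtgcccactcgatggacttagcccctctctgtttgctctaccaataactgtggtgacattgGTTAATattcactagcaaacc
Serpina1d (chr12:103773634-103773883): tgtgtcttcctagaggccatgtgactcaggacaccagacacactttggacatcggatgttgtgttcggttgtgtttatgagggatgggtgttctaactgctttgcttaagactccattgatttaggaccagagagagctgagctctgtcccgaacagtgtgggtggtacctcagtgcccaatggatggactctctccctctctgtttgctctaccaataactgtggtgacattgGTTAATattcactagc
Serpina1f (chr12:103695530-103695779): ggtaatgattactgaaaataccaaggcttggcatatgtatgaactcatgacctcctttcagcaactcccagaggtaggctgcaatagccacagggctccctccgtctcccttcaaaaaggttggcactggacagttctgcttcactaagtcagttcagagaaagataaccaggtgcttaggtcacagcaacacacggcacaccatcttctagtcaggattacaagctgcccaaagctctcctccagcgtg
The *Serpina1a* and *Serpina1d* promoters were 91.2% identical over these 250 bases, while the *Serpina1f* promoter was 51.6% identical to that of *Serpina1a* and 50.0% to that of *Serpina1d*. GTTAAT, searched on both strands as GTTAAT or ATTAAC, began 21 bases before the start of *Serpina1a* and 16 bases before that of *Serpina1d*, and the *Serpina1f* window held no match. It was present in 5 of the 6 *Serpina1* promoters and in 6.43% of all 32851 promoters of this length.

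*Serpina1* copies share sequence at the transcript end that was sequenced, so their counts are uncertain among themselves. Over the last 300 bases, *Serpina1a* and *Serpina1d* transcripts were 94.3% identical, with a longest shared run of 62 bases, whereas *Serpina1f* was at most 52% identical to any of the others with no shared run over 10 bases. Gated cells held a median of 7, 8.5, 9 and 10 *Serpina1* UMIs at D0, D1, D4 and D7. The cells were chosen by these *Serpina1* counts and by the absence of the excluded genes, so those values are a description. *Serpina1d* supplied 54.3, 58.2, 40.3 and 36.0% of all *Serpina1* UMIs of gated cells at D0, D1, D4 and D7. *Serpina1a* supplied 20.1, 25.8, 29.6 and 30.7%, and *Serpina1f* 22.8, 13.6, 23.5 and 29.3%. *Serpina1d* was thus the largest part in each library, and at D7 the 3 genes were closer to each other than at D0. *Serpina1b*, which the rule did not use, gave 1.72, 1.39, 5.93 and 3.09%, *Serpina1c* at most 1.09%, and *Serpina1e* had no UMI in any gated cell. The *Serpina1b* record spans the *Serpina1d* locus in GENCODE M21, a further source of doubt on that split.

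**Figure D1:**
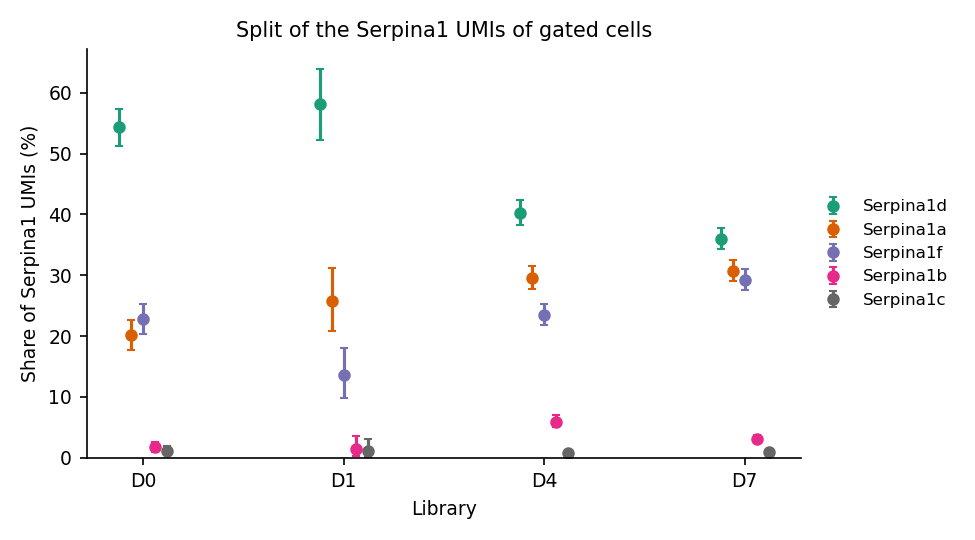
Share of the *Serpina1* UMIs of gated cells (vertical axis, %) assigned to each copy in each library, with exact Clopper-Pearson 95% intervals. *Serpina1d* gives 54.3% at D0 and 36.0% at D7, where *Serpina1a* and *Serpina1f* give 30.7 and 29.3%.

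The label was set beside genes outside the rule, and they had the profile of the straight tubule. *Cyp7b1* and *Slc22a7* were named beforehand as markers of these cells. The marker lists were chosen with earlier results of these data known, so the values describe the cells and are no independent check of the label. *Cyp7b1*, the oxysterol 7-alpha-hydroxylase, had 233, 158, 229 and 252 CPM in gated cells at D0, D1, D4 and D7. CPM are counts of a gene scaled to the same total of UMIs, summed over the cells of a set in a library. Other cells with an *Lrp2* UMI (megalin, the endocytic receptor of the proximal tubule) of the same libraries had 2.80, 2.16, 4.43 and 5.69 CPM. The ratio was 83.0 (68.7 to 100) at D0 and 44.2 (38.6 to 50.7) at D7, and *Cyp7b1* was seen in 52.5, 50.0, 50.7 and 47.6% of gated cells. *Slc22a7*, the organic anion transporter OAT2, had 487, 310, 227 and 205 CPM in gated cells, against 26.9, 14.9, 9.84 and 10.8 CPM in the other *Lrp2*-positive cells. Its ratio stayed between 18.1 (16.4 to 20.0) at D0 and 23.1 (20.2 to 26.4) at D4. Both genes were thus high in gated cells of each library.

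A list of 10 straight tubule markers included *Cyp7b1* and *Slc22a7*. Of the 10 markers, 8, 9, 8 and 10 were more than 1.5-fold higher in gated than in other *Lrp2*-positive cells at D0, D1, D4 and D7. Of all genes with at least 50 UMIs in the 2 sums, 4.29, 7.14, 2.95 and 3.99% were higher by that measure. In a list of 10 convoluted tubule markers, 10, 9, 10 and 10 were lower, beside 15.8, 25.5, 16.7 and 11.0% of all genes. The rule removes cells with *Slc5a2* or *Slc5a12* from the gated cells alone, which by itself lowers such markers. Against other cells with the same genes at 0, the median log2 ratio of the convoluted list was −1.45, −1.01, −1.33 and −1.09, in place of −2.61, −1.90, −2.16 and −2.17, and that of the straight list was 1.00, 1.07, 1.16 and 1.15, in place of 1.39, 1.42, 1.42 and 1.47. *Slc7a13*, the straight tubule aspartate and cystine transporter, had 1210, 1178, 1115 and 1127 CPM in gated cells and 446, 380, 321 and 346 CPM in the others. *Slc34a1*, the phosphate transporter, had 1061, 1108, 1000 and 795 CPM in gated cells, against 3294, 2372, 2980 and 2575 CPM in the others. It was lower in gated cells of each library. *Slc4a4*, the basolateral bicarbonate transporter, had 135, 171, 170 and 169 CPM in gated cells and 675, 494, 632 and 558 CPM in the others. *Lrp2* itself was seen in 87.9, 92.9, 81.2 and 88.9% of gated cells.

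Markers of other cells were mostly scarce in the gated cells. The rule removes cells with *Ptprc*, *Slc12a1* or *Slc12a3* from the gated cells alone, which by itself lowers leukocyte, thick limb and distal tubule markers. Against other cells with the same genes at 0, the log2 ratio of *Lyz2* at D7 was 1.19 in place of −1.12. The median of the thick ascending limb list at D7 was then 0.078 in place of −0.91. The endothelial and podocyte lists had no UMI in any library, and the summed lists of distal tubule, principal cell, lymphocyte and mesenchymal markers reached at most 3.71 CPM. Phagocyte markers summed to 28.8, 29.9, 37.5 and 105 CPM in gated cells, against 75.7 to 242 CPM in other *Lrp2*-positive cells. *C1qa* had no UMI at D1 and D4 and *Cd68* none at D0 and D7, and at D7 1 cell held 90.8% of the *Lyz2* UMIs. Intercalated cell markers were at 0, 2.72, 2.21 and 33.6 CPM in gated cells and at 13.7, 21.9, 17.3 and 27.8 CPM in the others, so gated cells were above them at D7. The thick ascending limb list summed to 265, 215, 233 and 242 CPM in gated cells, against 420, 338, 370 and 409 CPM in the others, mostly from *Cldn10*, and *Cldn16* had no UMI in gated cells. Gated cells were deeper, with median UMI counts of 9911, 10129, 6001 and 7627, against 6252, 7557, 5217 and 5940 in other *Lrp2*-positive cells. Their median mitochondrial share was also higher, at 22.1, 19.5, 26.1 and 24.6%, against 17.1, 11.6, 17.0 and 18.2%. Their part in the results was not tested beyond the alternatives on depth and mitochondrial share. Libraries shared 50 to 81 barcodes pairwise, none of them a gated cell.

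The gated cells were few in each library, with 99 of 9858 at D0, 28 of 6431 at D1, 207 of 13710 at D4 and 189 of 11689 at D7 when set among gated and other *Lrp2*-positive cells together. That is 1.00% (0.817 to 1.22), 0.435% (0.290 to 0.629), 1.51% (1.31 to 1.73) and 1.62% (1.40 to 1.86), with exact Clopper-Pearson intervals. After thinning each cell to 3000 UMIs, which left out shallower cells, the shares were 0.749% (0.556 to 0.986), 0.177% (0.0711 to 0.364), 1.36% (1.16 to 1.58) and 1.83% (1.58 to 2.12). The lowest depth among deposited barcodes was 500 UMIs at D0 and D1 but 2919 at D4 and 2773 at D7. With at most 25% mitochondrial UMIs the shares were 0.829, 0.376, 0.841 and 1.13%, so D4 was then close to D0. Level of *Serpina1* per cell and number of such cells cannot be told apart by a rule that needs 3 UMIs.

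*Serpina1* UMIs in cells of other types bear on how far free RNA could meet the *Serpina1* criteria of the rule. Among cells with at least 2 UMIs of *Ptprc*, the leukocyte phosphatase, the *Serpina1* criteria were met by 1 of 421 at D0, 0 of 909 at D1 (which allows up to 0.330%), 2 of 225 at D4 and 0 of 407 at D7 (which allows up to 0.737%). At least 1 *Serpina1* UMI was more common, in 0.713, 0.990, 3.56 and 2.95% of these cells, whose median depth was 2882, 3912, 4853 and 4607 UMIs. Among cells with at least 3 UMIs of *Slc12a1* and *Slc12a3*, the carriers of the thick limb and distal tubule, 1 of 460, 0 of 375, 1 of 314 and 6 of 484 met the *Serpina1* criteria, the last being 1.24% (0.456 to 2.68), and 0.870, 1.33, 1.91 and 4.75% had at least 1 UMI. The interval of that share was 0.00550 to 1.21% at D0, 0 to 0.979% at D1 and 0.00806 to 1.76% at D4. In each library it included the share of gated cells, at 1.00, 0.435, 1.51 and 1.62%. The interval of the *Ptprc* cells included that share at D0 (0.00601 to 1.32%) and D4 (0.108 to 3.17%) and lay below it at D1 and D7. These shares are not alike, since gated cells also needed the excluded genes at 0. A further 29, 12, 150 and 157 *Lrp2*-positive cells met the *Serpina1* criteria at D0, D1, D4 and D7 but held an excluded gene. The part of free RNA was not tested. In other *Lrp2*-positive cells at least 1 UMI was found in 2.10, 2.37, 5.90 and 6.70%. At D0, *Cyp7b1* was at 166 CPM (102 to 253) in the gated cells with just 3 *Serpina1* UMIs and at 31.3 CPM (8.53 to 80.2) in the cells with 2 UMIs of *Serpina1d* and *Serpina1f*, just outside the rule. At D4 these were 78.4 and 80.9 CPM and at D7 15.3 and 30.6 CPM, each from few UMIs, and the limit did not part high from low cells there. In gated cells with at least 10 *Serpina1* UMIs *Cyp7b1* was at 290, 153, 275 and 341 CPM.

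**Figure D2:**
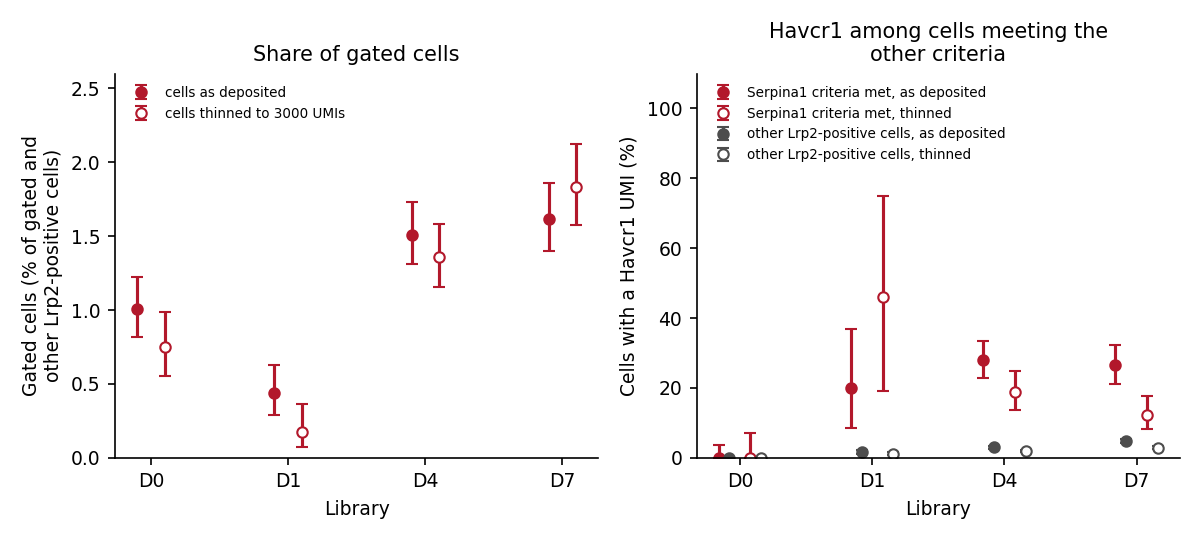
Left, share of gated cells among *Lrp2*-positive cells (vertical axis, %) in each library, as deposited and thinned to 3000 UMIs; right, share of cells with a *Havcr1* UMI among cells that met the other criteria and among other *Lrp2*-positive cells. Intervals are exact Clopper-Pearson 95% intervals, and D1 is lowest on the left while D0 has no *Havcr1* UMI among the 99 cells on the right.

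The rule leaves out cells with *Havcr1* (kidney injury molecule 1), and this cost more cells after glyoxylate. Among cells that met every other criterion, *Havcr1* was seen in 0 of 99 at D0 (which allows up to 3.03% by the limit of 3 counts and has an exact upper limit of 3.66%), in 7 of 35 at D1 (20.0%, 8.44 to 36.9), in 80 of 287 at D4 (27.9%, 22.8 to 33.4) and in 68 of 257 at D7 (26.5%, 21.2 to 32.3). Other *Lrp2*-positive cells with the same genes at 0 had it in 0.0627, 1.62, 2.99 and 4.92%. After thinning to 3000 UMIs the shares were 0 of 50, 6 of 13, 18.8% (13.6 to 24.9) and 12.4% (8.17 to 17.7), beside 0.0256, 1.05, 2.00 and 2.82% of the others. The *Serpina1* cells at D4 and D7 thus had *Havcr1* more often than the other cells of their library at equal depth, beyond counting error. The day comparisons describe the cells without *Havcr1*.

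**Figure D3:**
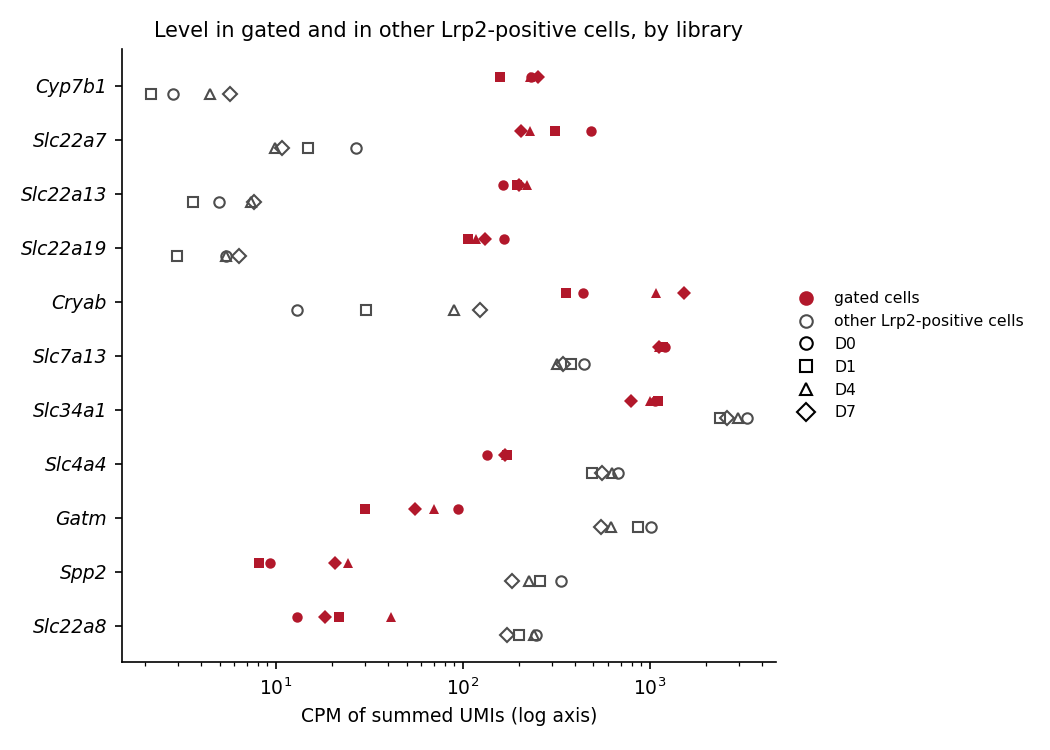
CPM of summed UMIs (horizontal log axis) of 11 genes in gated cells (filled) and other *Lrp2*-positive cells (open), 1 point per library. The genes were chosen as markers or for their ratio in these data, so a gap between the 2 sets carries no weight. *Cyp7b1* lies between 158 and 252 CPM in gated cells and *Gatm* between 29.9 and 94.6 CPM.

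Across all genes, 163 of 11265 (1.45%) were more than 1.5-fold higher in gated than in other *Lrp2*-positive cells in each of the 4 libraries, and 533 (4.73%) were lower. The lower count was 290 against other cells with the same genes at 0, and 1063 and 235 with pseudocounts of 1 and 20 CPM. The 12 highest genes included 3 transporters of organic anions. Of the 20 organic anion and cation transporters listed (19 measured at D1) 2, 2, 2 and 3 were higher in gated cells at D0, D1, D4 and D7 and 8, 4, 6 and 6 lower. Of all genes 4.29, 7.14, 2.95 and 3.99% were higher and 15.8, 25.5, 16.7 and 11.0% lower by library. *Slc22a13*, which carries urate and nicotinate, had 163, 196, 222 and 200 CPM in gated cells, against 4.97, 3.61, 7.39 and 7.65 CPM in the others, a ratio of 32.9 (27.3 to 39.5) at D0. *Slc22a19*, another member of that family in rodents, had 166, 106, 118 and 131 CPM in gated cells and 2.97 to 6.33 CPM in the others. Among those lower was *Slc22a8*, the transporter OAT3, which had between 13 CPM at D0 and 41.2 CPM at D4 in gated cells, against 245, 199, 241 and 172 CPM in the others. *Prlr*, the prolactin receptor, had 89.0, 81.6, 76.5 and 113 CPM in gated cells and at most 6.47 CPM in the others.

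The other genes at this end had various roles. *Mettl7a2*, a methyltransferase-like gene, had 157, 120, 196 and 215 CPM in gated cells and 1.76 to 5.14 CPM in the others. *Mep1b*, the brush border protease meprin beta, had 307, 229, 280 and 278 CPM in gated cells and 13.4 to 23.5 CPM in the others. *Scd1*, which makes monounsaturated fatty acids, had 203, 76.2, 308 and 267 CPM in gated cells, against 5.90, 2.64, 12.8 and 10.3 CPM in the others. Both cell sets had the lowest *Scd1* at D1. *Cryab*, the small heat shock protein alpha-B-crystallin, had 437, 357, 1084 and 1531 CPM in gated cells and 12.9, 30.4, 89.8 and 123 CPM in the others. *Kcnk1*, a potassium channel, had 93.7, 65.3, 216 and 259 CPM in gated cells and at most 9.84 CPM in the others. The remaining genes at this end, *Ppic* (cyclophilin C) and *Myo5a* (a vesicle motor), had 125 to 188 and 53.7 to 87.2 CPM in gated cells, against 12.5 to 16.2 and 4.03 to 4.74 CPM in the others.

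Genes at the other end included enzymes and carriers of the convoluted tubule. The rule removes cells with *Slc5a2* or *Slc5a12* from the gated cells alone, which by itself lowers such genes against the others. *Gatm*, the first enzyme of creatine synthesis, had 94.6, 29.9, 69.9 and 55.6 CPM in gated cells, against 1017, 870, 620 and 548 CPM in the others. *Spp2*, a secreted phosphoprotein, had 9.28, 8.16, 24.3 and 20.8 CPM in gated cells, against 335, 258, 226 and 184 CPM. The carbonic anhydrase genes *Car2*, *Car3* and *Car12* were all in this group; *Car2* had 32.5, 24.5, 60.4 and 61.8 CPM in gated cells, against 356, 433, 299 and 329 CPM. *Prodh2*, which starts the breakdown of hydroxyproline to glyoxylate, had 3.71, 0, 9.57 and 9.17 CPM in gated cells and 59.0, 60.9, 66.3 and 67.8 CPM in the others. *Mt1*, *Alpl*, *Slc51a* and *Tceal8* were also in it. Trimmed mean (TMM) scaling added 0.126, 0.118, 0.269 and 0.177 to the log2 ratios of gated against other cells at D0, D1, D4 and D7, and reversed the called ratio of no named gene.

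Lists of androgen-responsive, peroxisomal and steroid genes held members of both directions. Of 13 androgen-responsive genes 3, 3, 2 and 2 were higher in gated cells and 5, 3, 6 and 7 lower. *Kap*, the androgen-regulated kidney protein, was among the higher, with 94924, 83314, 92650 and 74355 CPM in gated cells and 48229, 39632, 46084 and 37903 CPM in the others, about the same ratio in each library (1.97, 2.10, 2.01 and 1.96). *Acadm*, medium-chain acyl-CoA dehydrogenase, had 1918, 1837, 1103 and 1042 CPM in gated cells, against 556, 638, 471 and 446 CPM. *Crot*, which passes shortened acyl chains out of peroxisomes, had 590, 716, 505 and 516 CPM in gated cells and 166, 209, 141 and 154 CPM in the others. In the fatty acid oxidation and peroxisome list 8, 7, 4 and 5 of 23 genes were higher in gated cells and 4, 3, 4 and 3 were lower, where 4.29, 7.14, 2.95 and 3.99% of all genes were higher and 15.8, 25.5, 16.7 and 11.0% lower. In the steroid and bile acid list 6, 6, 5 and 5 of 15 were higher and 3, 4, 4 and 4 lower. Among the higher was *Hsd11b1*, which regenerates active glucocorticoid, with 124, 59.9, 200 and 175 CPM in gated cells and 27.2, 19.4, 16.1 and 13.2 CPM in the others.

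The gated cells differed from most cells with the straight tubule marker *Slc7a13*. Cells with at least 3 *Slc7a13* UMIs and none of the excluded genes numbered 2511, 1595, 2625 and 2456 outside the gate. In them *Cyp7b1* was at 2.26, 0.710, 0.632 and 0.741 CPM, *Slc22a13* at 8.74, 4.87, 9.95 and 9.27 CPM and *Mettl7a2* at 0.710 to 2.18 CPM, far below the gated cells. *Slc34a1* was at 3460, 2563, 3032 and 2865 CPM in these cells, so its low level in gated cells was not shared by them. The low *Gatm* level was shared, at 123, 92.7, 134 and 126 CPM in them, against 2223, 2042, 1357 and 1168 CPM in cells with at least 2 UMIs of *Slc5a2* and *Slc5a12*. *Kap* was at 79279, 66285, 71686 and 65093 CPM in the *Slc7a13*-positive cells, closer to the gated cells than to the *Slc5a2* or *Slc5a12* cells, which had 15598, 11391, 20932 and 15954 CPM.

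The day comparison asked how these cells differed from D0 after 1, 4 and 7 days of glyoxylate. In gated cells 147 of 2768 genes (5.31%) were more than 1.5-fold higher at D1 than at D0 and 118 (4.26%) were lower. At D4, 163 of 3930 (4.15%) were higher and 311 (7.91%) lower. At D7, 429 of 4462 (9.61%) were higher and 209 (4.68%) lower. The D7 sum held more UMIs than the D0 sum. A gene that reached the limit of 50 UMIs through D7 alone had to be higher there. With at least 50 CPM in the higher group, 210 genes were higher and 111 lower at D7. TMM scaling moved the log2 ratios of gated cells by −0.129 at D1, 0.109 at D4 and −0.0417 at D7, and the split was then 83 higher and 189 lower at D1 and 233 and 194 at D4. With cells holding *Havcr1* allowed, a setting chosen after seeing the data, 373 genes were higher at D4 and 723 at D7. The 3 comparisons share the D0 library and its 99 cells, so they are not independent. D1 rests on 28 cells, and 1 cell can carry much of a gene there. In the other *Lrp2*-positive cells, summed over far more UMIs, 412 of 12902 genes (3.19%) were higher at D7 and 85 (0.659%) lower; at D4, 1.77% were higher and 0.368% lower, and at D1, 0.986 and 0.270%.

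*Spp1*, the secreted phosphoprotein osteopontin, which binds calcium oxalate crystals in the tubule, had the highest ratio at D4 and D7 of the genes named. It had 20, 66, 2487 and 4379 UMIs in the gated cells, or 18.6, 180, 1831 and 2677 CPM, at D0, D1, D4 and D7. Other *Lrp2*-positive cells had 271, 601, 1171 and 2267 CPM. The ratio to D0 was 98.7 (63.8 to 162) at D4 and 144 (93.3 to 236) at D7 in gated cells, against 8.36 at D7 in the others. At D1, 1 cell held 75.8% of the UMIs. Gated cells were thus below the other cells at D0, at a ratio of 0.0684 (0.0418 to 0.106), and above them at D7, at 1.18 (1.15 to 1.22). With the other cells limited to those with the same genes at 0, the log2 ratio of gated to other cells was −0.65 at D0, 0.19 at D1, 1.53 at D4 and 1.55 at D7, in place of −3.55, −1.71, 0.64 and 0.24, so gated cells were then nearer to the others at D0 and farther above them at D7. With *Havcr1* allowed in the gated cells, the log2 ratio of D1 to D0 was 4.53 in place of 2.97, and that of gated to other cells was −0.15 at D1, 1.496 at D4 and 0.93 at D7.

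The *Slc7a13*-positive cells started at a like level and ended lower. They had 16.2, 53.0, 417 and 441 CPM of *Spp1*, while cells with *Slc5a2* or *Slc5a12* had 645, 1034, 1470 and 2924 CPM. Per cell at 3000 UMIs, *Spp1* was seen in 5.56, 7.69, 63.5 and 68.7% of gated cells and in 28.9, 34.6, 60.5 and 71.1% of other *Lrp2*-positive cells. Cells with at least 2 UMIs of *Ptprc*, some of which can express the gene themselves, had it in 10.4, 17.9, 42.9 and 48.2% at that depth. The shares in gated cells at D0 and D1 were therefore at or below those of the *Ptprc* cells, and those at D4 and D7 above them. *Cryab* had less background: thinned shares were 40.0, 42.3, 71.9 and 79.1% in gated cells, 2.32, 3.51, 9.76 and 14.0% in other *Lrp2*-positive cells and at most 5.66% in cells with *Ptprc*. *Cryab* was 3.50-fold (3.17 to 3.87) higher at D7 than at D0 in gated cells and 9.54-fold higher in the others, so the gap between them was narrower at D7.

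**Figure D4:**
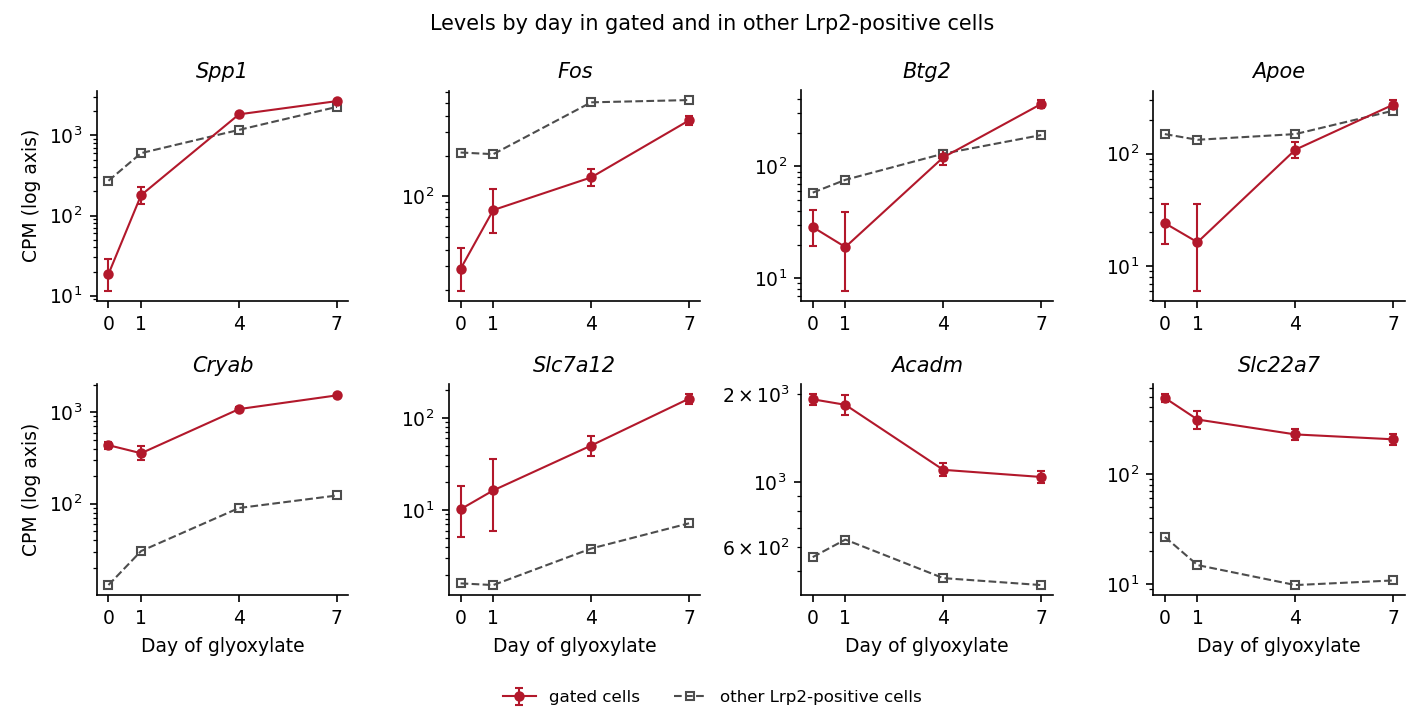
CPM of summed UMIs (vertical log axes, scaled per gene) of 8 genes by day in gated cells (filled, with exact Poisson 95% intervals) and other *Lrp2*-positive cells (open), 1 library per point. *Spp1* reaches 2677 CPM at D7 in gated cells, while *Acadm* and *Slc22a7* are lowest there, at 1042 and 205 CPM.

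Immediate-early genes, transcribed within minutes of a stimulus or of tissue digestion, had a higher summed level in gated cells at D7 than at D0. All 16 listed genes together had 631, 645, 1485 and 2733 CPM in gated cells and 1812, 1688, 3246 and 3256 CPM in other *Lrp2*-positive cells at D0, D1, D4 and D7. Only 13 of the 16 reached 50 UMIs in the D0 and D7 sums of gated cells, and all 13 were past 1.5-fold higher, but a gene that reached the limit through D7 alone had to be higher there, so that count carries no weight. *Fos* had 28.8, 78.9, 138 and 369 CPM in gated cells, against 212, 206, 503 and 523 CPM in the others, and at D1 1 cell held 72.4% of it. *Btg2*, an antiproliferative early gene, had 28.8, 19.1, 121 and 362 CPM in gated cells and 58.4, 76.0, 130 and 191 CPM in the others. *Atf3*, a stress transcription factor, had 6.49, 8.16, 33.1 and 131 CPM in gated cells and 13.1, 21.7, 49.1 and 90.4 CPM in the others. *Ier2* had 14.8, 10.9, 47.8 and 114 CPM in gated cells, against 73.3, 65.3, 96.4 and 85.4 CPM. The D7 levels of *Btg2*, *Atf3* and *Ier2* were above those of the other cells, and that of *Fos* below. Digestion was the same in the labels of all libraries, and its part in these values was not tested.

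The 21 tubule injury genes together had 664, 860, 3513 and 5522 CPM in gated cells and 686, 1232, 2051 and 3510 CPM in the others, and *Spp1* and *Cryab* made up most of the gated sum at D4 and D7. Only 10 of the 21 reached 50 UMIs in the D0 and D7 sums of gated cells, and 8 had no UMI at D0, so a count of those 10 carries no weight either. Their median log2 ratio at D7 was 2.45 without and 3.08 with cells holding *Havcr1*, and at D4 the medians were 1.30 and 2.18. *Wfdc2*, a secreted protease inhibitor, had 27.8, 57.2, 198 and 295 CPM in gated cells and 22.5, 32.7, 47.5 and 81.9 CPM in the others. *Gdf15*, a stress cytokine, had 59.4, 120, 149 and 479 CPM in gated cells, against 79.1, 100, 251 and 335 CPM. *Hspb1*, a small heat shock protein, had 2.78, 5.44, 32.4 and 97.8 CPM in gated cells and 10.2, 15.6, 36.6 and 53.9 CPM in the others. *Clu*, the extracellular chaperone clusterin, had 7.42, 0, 36.1 and 55.6 CPM in gated cells and 10.7, 20.1, 28.3 and 37.7 CPM in the others. Some classic markers stayed low in gated cells: *Lcn2* (lipocalin 2) had 0, 0, 10.3 and 6.73 CPM and *Krt18* (keratin 18) 0, 2.72, 1.47 and 3.06 CPM.

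Several genes of secreted plasma-type proteins, the class to which *Serpina1* belongs, were also higher at D7, and all 22 listed together had 430, 781, 669 and 1005 CPM in gated cells and 1189, 1002, 1251 and 1344 CPM in the others. *Apoe*, a protein of lipoproteins, had 24.1, 16.3, 108 and 271 CPM in gated cells, against 149, 132, 149 and 240 CPM in the others. The *Slc7a13*-positive cells had 10.5, 8.87, 27.4 and 39.9 CPM. *Gc*, the vitamin D binding protein, had 6.49, 10.9, 30.9 and 115 CPM in gated cells and 9.05, 8.81, 10.5 and 19.6 CPM in the others. *Cp*, the copper oxidase ceruloplasmin, had 9.28, 8.16, 75.1 and 148 CPM in gated cells and 0.432, 0.760, 8.10 and 19.4 CPM in the others. Of the 22 genes 9 reached 50 UMIs in the D0 and D7 sums of gated cells, 6 of them higher and 1 lower, beside 9.61 and 4.68% of all genes. A gene that reached the limit through D7 alone had to be higher there, so that count carries no weight. *Alb*, albumin, was at 2.45 to 8.16 CPM in gated cells, and *Ahsg*, *Rbp4* and *Hpx* had no UMI there.

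**Figure D5:**
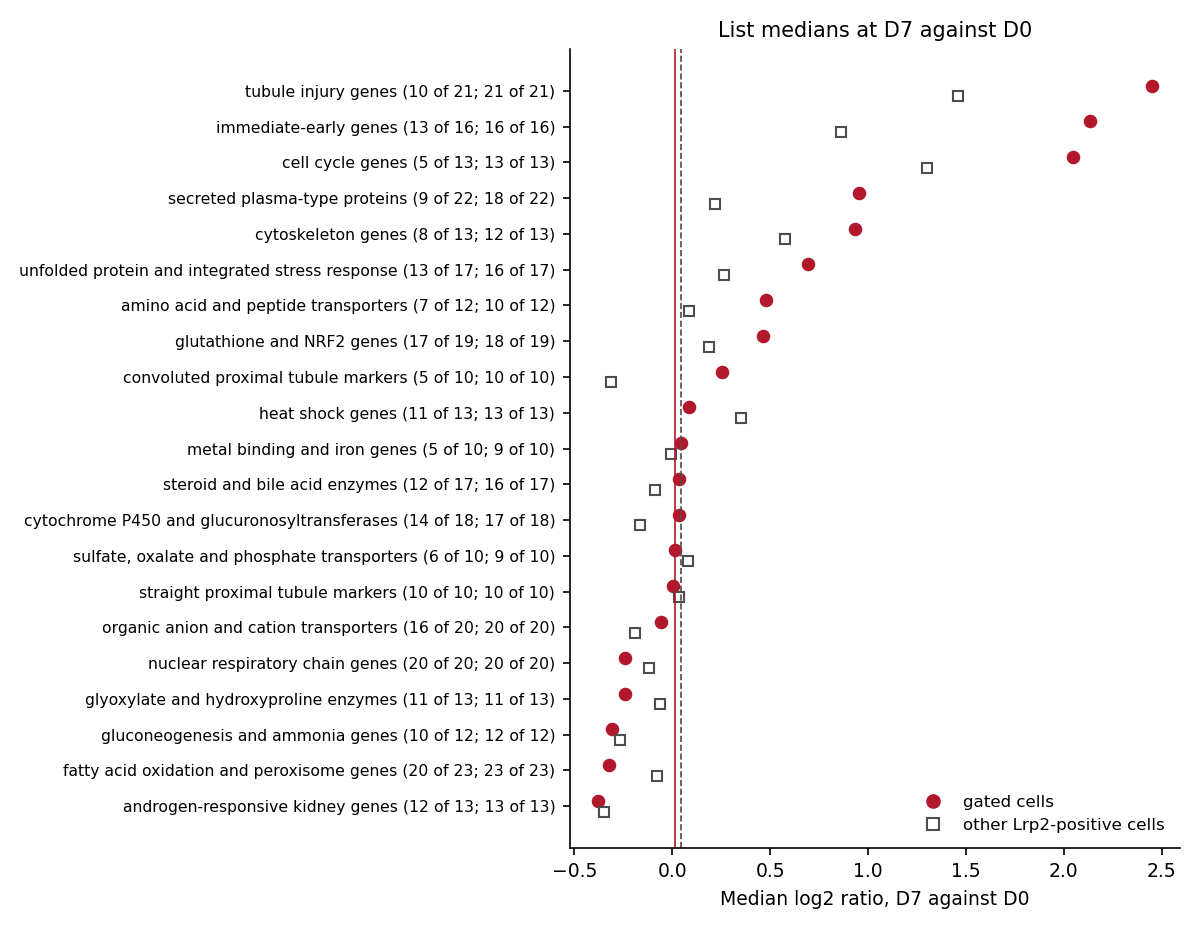
Median log2 ratio of D7 against D0 (horizontal axis) for the measured members of each gene list, in gated cells (filled) and other *Lrp2*-positive cells (open); brackets give members measured in gated and in other cells of all members, and vertical lines the medians over all genes (0.01 in gated, 0.05 in other cells). The 2 medians of a list cover different members where the brackets differ, and members that reach the limit through D7 alone push a median up. Tubule injury genes lie farthest to the right in gated cells (2.45) and androgen-responsive genes farthest to the left.

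Lists of the endoplasmic reticulum and of antioxidant defence had smaller positive medians at D7. In the unfolded protein and integrated stress list 7 of 13 measured genes were higher at D7 and 0 lower (median 0.69). In the others 1 of 16 was higher (0.27). Of all genes 9.61% were higher in gated cells and 3.19% in the others. All 17 listed genes together had 1654 CPM at D0 and 2375 CPM at D7 in gated cells. They had 2031 and 2364 CPM in the others. *Hspa5*, the chaperone BiP, had 277, 329, 332 and 478 CPM in gated cells, against 402, 393, 502 and 499 CPM in the others. In the glutathione and NRF2 list 6 of 17 were higher and 0 lower (median 0.46), against 1 of 18 (0.19), beside the same shares of all genes. All 19 listed genes together had 13315 CPM at D0 and 16300 CPM at D7 in gated cells. They had 17859 and 19064 CPM in the others. In both lists a gene that reached the UMI limit through D7 alone had to be higher there. The members measured also differed between the cell sets. The counts of both lists thus carry no weight, and their medians in gated cells may be too high. *Gpx3*, the secreted glutathione peroxidase, had 2147, 2866, 3557 and 4201 CPM in gated cells and 7628, 6838, 8414 and 8058 CPM in the others. *B2m*, the light chain of MHC class I, had 20.4, 40.8, 53.7 and 103 CPM in gated cells and 93.5, 114, 116 and 126 CPM in the others. For these 3 genes gated cells were below the other cells at D0 and nearer to them at D7.

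Some genes of fatty acid breakdown were lower at D4 and D7, but most members of their list were within 1.5-fold of D0. *Acadm* was at a ratio of 0.575 (0.537 to 0.615) at D4 and 0.543 (0.509 to 0.580) at D7 in gated cells, against 0.803 at D7 in the others. *Ehhadh*, the peroxisomal bifunctional enzyme, had 345, 397, 146 and 177 CPM in gated cells and 138, 187, 92.4 and 106 CPM in the others. *Amacr*, a racemase of branched fatty acids and bile acid precursors, had 542, 509, 266 and 246 CPM in gated cells and 311, 311, 204 and 203 CPM in the others. In the fatty acid oxidation and peroxisome list 5 of 19 measured genes were lower and 1 higher at D4 (median −0.40), and 2 of 20 lower and 1 higher at D7 (median −0.32), while at D1 2 of 18 were higher and 0 lower. Of all genes in gated cells 7.91% were lower and 4.15% higher at D4, 4.68 and 9.61% at D7, and 4.26 and 5.31% at D1. Nuclear genes of the respiratory chain held no call at D7 in either direction among 20, with a median of −0.24. In the androgen-responsive list 5 of 12 were lower and 0 higher at D7 (median −0.38), much as in the others (3 of 13 lower, −0.35). Of all genes 4.68% were lower at D7 in gated cells and 0.659% in the others.

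Transporters were found in both directions. *Slco1a1*, an organic anion carrier, had 210, 166, 52.3 and 38.5 CPM in gated cells and 185, 138, 82.9 and 71.2 CPM in the others, a D7 ratio of 0.184 (0.137 to 0.244) and 0.385. *Slc22a7* was at 0.422 (0.367 to 0.485) at D7 in gated cells and at 0.404 in the others. *Slc13a1*, the apical sulfate transporter, had 87.2, 220, 174 and 308 CPM in gated cells, against 295, 433, 500 and 632 CPM. *Slc7a12*, an amino acid transporter gene, had 10.2, 16.3, 50.1 and 161 CPM in gated cells and 1.60, 1.54, 3.83 and 7.19 CPM in the others. *Slc6a18*, which takes up neutral amino acids, had 271, 245, 396 and 451 CPM in gated cells and 115, 109, 175 and 175 CPM in the others. The straight tubule marker list as a whole was even, with 1 of 10 genes lower and 0 higher at D7 and a median of 0.00. Of all genes 4.68% were lower and 9.61% higher.

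Among enzymes that make or remove glyoxylate, *Hao2*, a peroxisomal hydroxyacid oxidase, had 135, 166, 184 and 350 CPM in gated cells, against 208, 301, 294 and 352 CPM in the others, a D7 ratio of 2.58 (2.15 to 3.12) and 1.70. *Agxt* and *Hao1*, the liver enzymes that detoxify and form glyoxylate, had no UMI in gated cells. Of 11 measured genes of this list 2 were higher and 2 lower at D7, beside 9.61 and 4.68% of all genes. Other genes with the lowest D7 ratios were *Dnajc12*, a co-chaperone, with 401, 381, 146 and 175 CPM in gated cells and 368, 375, 244 and 216 CPM in the others, and *Inmt*, an amine methyltransferase, with 655, 857, 405 and 281 CPM and 851, 751, 657 and 532 CPM. *Ugt2b37*, a glucuronosyltransferase, had 116, 62.6, 47.8 and 38.5 CPM in gated cells, against 184, 174, 127 and 153 CPM. *Lipo1*, *Vill* and *Hsd17b11* were the other genes named at this end.

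At D1 the genes with the highest ratios, besides *Spp1* and *Fos*, were *Cbr1*, *Nmrk1*, *Reep6*, *Usf3*, *Gsta2* and *Ttr*. *Gsta2*, a glutathione transferase, had 170, 433, 233 and 359 CPM in gated cells and 586, 971, 682 and 816 CPM in the others. *Cbr1*, a carbonyl reductase, had 43.6, 147, 67.0 and 131 CPM in gated cells and 41.1, 63.0, 60.6 and 79.6 CPM in the others, a D1 ratio of 3.37 (2.24 to 5.09) in gated cells. Among the lowest were *Scd1*, *Gatm*, *Akr1c18*, *G0s2*, *Arrdc3* and *Rnf24*. Of these, *G0s2*, an inhibitor of triglyceride lipase, had 203, 68.0, 178 and 136 CPM in gated cells and 292, 188, 311 and 221 CPM in the others. *Akr1c18*, a hydroxysteroid dehydrogenase that inactivates progesterone, had 60.3, 2.72, 111 and 50.1 CPM in gated cells and at most 2.85 CPM in the others, and the D1 value is 1 UMI. With cells holding *Havcr1* allowed, its log2 ratio at D1 was 0.09 in place of −3.08.

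The difference between the D7 change in gated cells and that in other *Lrp2*-positive cells exceeded 2-fold for 47 of 4462 genes (1.05%) in the higher sense and for 11 (0.247%) in the lower. The counts were 93 higher with at most 25% mitochondrial UMIs, 113 higher with *Havcr1* allowed, and 22 and 0 with a pseudocount of 20 CPM. *Spp1* led, with a difference of 3.79 on the log2 scale, followed by *Apoe* (2.57), *Ier2* (2.37), *Fos* (2.19) and *Btg2* (1.81). Against other cells with the same genes at 0, the *Spp1* log2 ratio of gated to other cells was −0.65 at D0 and 1.55 at D7. It was −3.55 and 0.24 against all others. For *Apoe* these were 0.11 and 1.84, in place of −2.40 and 0.17. Both differences were then smaller. The 5 lowest ranked genes were *Ugt2b37* (−1.22) and *Cryab* (−1.04), which passed that limit, and *Slco1a1* (−0.99), *S100a10* (−0.88) and *Adh1* (−0.84), which did not. At D0 the 5 higher genes were all below their level in the other cells, except *Apoe* where the others were limited to cells with the same genes at 0 (log2 ratio 0.11 in place of −2.40).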

How the data were processed

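Kidney cells from 4 libraries, 1 per day of glyoxylate, were measured by droplet sequencing of 3′ transcript ends. The authors deposited raw UMI counts of 27998 genes in each cell, not normalized. Cell Ranger 3.1.0 and mm10 were used, per the submitters' processing notes, and the matrices name software 3.0.1, per the file headers. Settings of the cell calling and the annotation release are not given in the sources.

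UMIs were summed per library over gated cells (at D0 1078057, at D1 367440, at D4 1358607 and at D7 1635638 UMIs) and over other cells with an *Lrp2* UMI (71686945, 57866000, 78123317 and 77097081 UMIs), and scaled to CPM. Genes with at least 50 UMIs in the 2 sums compared were called higher or lower past 1.5-fold of CPM plus 5, and a difference of changes past 2-fold. Printed folds are ratios of CPM with exact Poisson 95% intervals, shares have exact Clopper-Pearson 95% intervals, and a count of 0 allows up to 3 counts. Intervals cover counting error only; with 1 library per group no p-value was computed. No doublets were removed in the values reported; removing the highest Scrublet scores (scanpy 1.11.5) at 0.8% per 1000 cells was an alternative. Further alternatives were thinning or a minimum of 3000 UMIs, at most 25% mitochondrial UMIs, a stricter *Serpina1* limit, pseudocounts of 1 and 20, TMM factors (edgeR 4.0.16, used for scaling alone), a mean over cells, other expression limits and other comparison cells. The ratio and interval code was tested on simulated data.

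Genes named are the 12 highest and 12 lowest of gated against other cells by their least extreme ratio over the 4 libraries, the 8 highest and 8 lowest of each day, the 5 largest differences of the D7 change each way, up to 4 members per list, and the *Serpina1* copies, *Cyp7b1*, *Slc22a7*, *Slc7a13*, *Spp1* and *Lrp2*, with at least 50 CPM in a group where ranked; further list members are given as examples chosen after their values were seen. Some genes that this rule names are not reported here. Members and the 33 gene lists were chosen with earlier results of these data known. Of 918 cells that met the *Serpina1* criteria, 195 had *Slc5a2* or *Slc5a12*, 20 *Ptprc*, 45 *Slc12a1* or *Slc12a3* and 210 *Havcr1* UMIs, some more than one. Python 3.11.15 and scipy 1.17.1 were used; promoter sequences are from RefSeq, which held 9 of 13 genes looked up, and gene positions from GENCODE M21.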

Additional observations from a re-analysis of the deposited data

Results flagged for a closer look

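*Ttr*, the gene of the thyroxine carrier transthyretin, was at 134, 343, 183 and 191 CPM in gated cells at D0, D1, D4 and D7 and at 401, 211, 378 and 233 CPM in other *Lrp2*-positive cells. Its ratio of D1 to D0 was 2.55 (1.99 to 3.26) in gated cells and 0.526 in the others, a difference of 2.23 on the log2 scale, and it stands here because the 2 cell sets moved in opposite directions. The difference was not tested, since each day was 1 library. In gated cells 28.3% of the UMIs at D0 and 30.2% at D1 came from 1 cell.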

How the results depend on the processing

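No paired analysis was possible because each time point was 1 library. Shares of gated cells kept their order of D1 below D0 and D7 above D0 in each setting tried, but were 0.749% at D0 and 0.177% at D1 when thinned to 3000 UMIs, 0.841% at D4 and 1.13% at D7 with at most 25% mitochondrial UMIs, 0.599, 1.02 and 1.13% at D0, D4 and D7 with the stricter *Serpina1* limit, and 2.09 and 2.20% at D4 and D7 with *Havcr1* allowed. Of 114 counts of genes 45 differed by over 1.5 times. Main counts higher and lower were 147 and 118 at D1, 163 and 311 at D4, 429 and 209 at D7, 163 and 533 for gated against other cells in all 4 libraries, and 47 and 11 for the difference at D7. At most 25% mitochondrial UMIs gave 93 higher at D1 and 93 for the difference. The stricter limit gave 77 lower at D1 and 94 higher at D4. A pseudocount of 1 gave 1063 lower in all 4 libraries and 73 and 21 for the difference; 20 gave 70 and 62, 85 and 127, 241 and 87 by day, 235 lower in all 4 libraries and 22 and 0 for the difference. TMM gave 83 and 189 at D1, 194 lower at D4 and 7 lower for the difference. A mean over cells gave 228 and 204 at D1 and 22 lower for the difference. With 1 UMI as the limit the counts were 1731 and 1429, 832 and 911, 1333 and 555 by day, and 138 and 46. Other cells with the same zeros gave 290 lower in all 4 libraries and 5 lower for the difference. With *Havcr1* allowed, 373 and 723 were higher at D4 and D7, and 113 for the difference. A limit of 50 CPM gave 76 lower at D1, 80 and 159 at D4, 210 and 111 at D7, 108 and 159 in all 4 libraries, and 24 and 3.

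Of the ratios of named genes 9 reversed, and of list medians 3. *Cyp4a14* at D4 was −0.034 with at most 25% mitochondrial UMIs (0.86 as reported), *Ugt2b37* at D1 0.68 with the stricter limit (−0.84). Against other cells with the same zeros, *Apoe* at D0 was 0.11 (−2.40), *Spp1* at D1 0.19 (−1.71), *Fgg* at D7 0.070 (−0.75), *Lyz2* at D7 1.19 (−1.12) and the thick ascending limb median at D7 0.078 (−0.91). With *Havcr1* allowed, *Hspb1* and *Ier2* against other cells at D1 were 0.074 (−0.98) and 0.19 (−2.15), and *Akr1c18* at D1 0.090 (−3.08). With a limit of 50 CPM, the metal binding list against other cells was 0.36 (−0.76) at D4 and 0.26 (−0.85) at D7. The cause was not tested. The 28 gated cells at D1 limit every D1 value, and libraries differ in their lowest cell depth.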

Other observations

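The *Serpina1* cells that the rule left out for a *Havcr1* UMI (7 at D1, 80 at D4 and 68 at D7, none at D0) had the *Cyp7b1* level of gated cells or more, at 742, 248 and 275 CPM at D1, D4 and D7, against 158, 229 and 252 CPM in gated cells. They had more *Spp1*, at 1705, 6336 and 8097 CPM, against 180, 1831 and 2677 CPM in gated cells, and more *Cryab*, at 2306, 3062 and 3185 CPM, against 357, 1084 and 1531 CPM. The transporters *Slc34a1* and *Slc7a13* and the androgen-regulated *Kap* were lower in them than in gated cells at D4 and D7. *Slc34a1* was at 760, 482 and 357 CPM, against 1108, 1000 and 795 CPM, *Slc7a13* at 1131, 736 and 605 CPM, against 1178, 1115 and 1127 CPM, and *Kap* at 89953, 65079 and 52573 CPM, against 83314, 92650 and 74355 CPM. *Fos* was similar in both sets at D4 and D7, at 163 and 436 CPM in the cells with *Havcr1* and 138 and 369 CPM in gated cells.

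Mitotic genes appeared in few gated cells. *Cdk1*, the mitotic kinase, had 0, 0, 9 and 54 UMIs in gated cells at D0, D1, D4 and D7, which for D7 against D0 is at least 11.9-fold higher, taking 3 UMIs per library as the floor, and 1 cell held 40.7% of the D7 UMIs. *Birc5*, survivin, had 1, 0, 11 and 60 UMIs, with 28.3% of the D7 UMIs in 1 cell. Both genes reached the UMI limit through D7 alone and had to be higher there, so the 11.9-fold value carries no weight. The 13 cell cycle genes listed together had 53.8, 65.3, 112 and 265 CPM in gated cells at D0, D1, D4 and D7. They had 102, 113, 243 and 307 CPM in other *Lrp2*-positive cells, above the gated cells in each library.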
